A study of Mus musculus with 8 samples.

Results

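The genes described here are 10 transcripts of Sertoli cells, or of the hormone response of these cells, in mouse testis: Amh, Inha, Inhbb, Sox9, Wt1, Gata4, Fshr, Drd4, Rhox5 and Clu. They were chosen by name, and each name matched 1 Ensembl identifier among the 55421 in each library. The series holds 8 RNA sequencing libraries of testis from wild-type male mice, 2 in each of 4 groups. The LPS+DHEA+Nb group received lipopolysaccharide (LPS), an inflammatory product of Gram-negative bacteria, and 6 h later dehydroepiandrosterone (DHEA), an androgen precursor, together with Nb23-bi, about which the labels say no more. The LPS+DHEA group received LPS and, 6 h later, DHEA, the LPS group received LPS, and the CTRL group received phosphate-buffered saline. No group was given the later injection without DHEA, so DHEA and the injection cannot be told apart. The sources used here give neither strain, age, dose nor collection time, and do not say that the 2 libraries of a group stem from different mice, so every error and p-value below measures the spread between libraries, which may be technical.

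Sertoli cells line the seminiferous tubule and nurse the germ cells. They respond to follicle-stimulating hormone (FSH) and to androgens, and so convey hormonal signals to spermatogenesis. Anti-Müllerian hormone and the inhibins are their secreted hormones, SOX9, WT1 and GATA4 are transcription factors of their development and maintenance, and the homeobox gene Rhox5 is a classic androgen-induced target in the mouse Sertoli cell. Several of these genes are not exclusive to the cell type. Gata4 and Inha are also active in Leydig cells, and Clu is transcribed in many tissues. In whole testis, fewer Sertoli cells and less RNA per cell cannot be told apart.

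Each library held 61291062 to 64521795 counts. All 10 members passed the filter on low counts, with which 26414 genes were tested. Germ cell transcripts that mark testis were abundant in every library, with Tnp1 at 1578 to 1973 CPM (counts scaled to a common library total) and Prm1 at 2382 to 2937 CPM. The extraction protocol in the labels names islets, while these transcripts and the tissue label name testis. The summed level of 30 other Sertoli markers was 1342 to 1348 CPM in LPS+DHEA+Nb, 1441 to 1456 CPM in LPS+DHEA, 1391 to 1463 CPM in LPS and 1361 to 1405 CPM in CTRL. Of 8 epididymal markers, which would show epididymis left on the tissue, 7 had at most 10 counts in any library, Lcn5 and Adam28 had 0 in all 8, and the remaining Cst8 is also made in testis.

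The 300 bases around the RefSeq starts of Rhox5 and the dopamine receptor gene Drd4 are shown. Each window holds 250 before and 50 from the start, 5′ to 3′, GRCm38.p6. These genes were chosen as the members that lay higher in both LPS+DHEA+Nb libraries than in both libraries of LPS+DHEA and of LPS. Of all genes tested, 18.1% lay higher without overlap in LPS+DHEA+Nb versus LPS, and 15.7% in LPS+DHEA+Nb versus LPS+DHEA. The share that met both conditions was not counted. Neither gene passed the edgeR test after adjustment in any comparison, so the choice is descriptive, and a response to Nb23-bi is not implied. Both windows were searched on both strands for AGAACA, the core hexamer of androgen and glucocorticoid response elements, AACAAT for SOX factors, AGATAA for GATA factors, AAGGTCA for NR5A receptors and TGACG for cyclic AMP response elements. Capitals mark matches.
Rhox5, chrX:37754358-37754657, plus strand: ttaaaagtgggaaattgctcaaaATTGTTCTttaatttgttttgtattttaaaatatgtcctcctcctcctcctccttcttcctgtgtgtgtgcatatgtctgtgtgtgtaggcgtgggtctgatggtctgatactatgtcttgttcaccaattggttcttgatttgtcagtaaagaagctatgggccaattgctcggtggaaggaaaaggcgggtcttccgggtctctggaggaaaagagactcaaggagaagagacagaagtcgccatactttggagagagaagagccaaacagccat
Drd4, chr7:141291768-141292067, plus strand: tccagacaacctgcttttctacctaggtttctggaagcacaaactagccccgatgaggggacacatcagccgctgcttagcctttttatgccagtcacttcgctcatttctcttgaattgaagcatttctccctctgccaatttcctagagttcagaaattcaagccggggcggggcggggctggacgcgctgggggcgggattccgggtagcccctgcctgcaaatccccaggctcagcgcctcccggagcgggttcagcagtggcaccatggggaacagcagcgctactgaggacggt
The Rhox5 window held 1 match to the androgen hexamer (TGTTCT, on the opposite strand) that overlapped 1 match to the SOX letters (ATTGTT), with first bases at -225 and -227 from the start. The capitals therefore run together over both. The Drd4 window held none of the 5 motifs. Among all 32851 windows of this length in the RefSeq table, 19.0% held the androgen hexamer, 10.7% the SOX letters, 11.2% the GATA letters, 4.72% the NR5A letters and 20.8% the cyclic AMP letters. The RefSeq window of Rhox5 ends at 37754657, far upstream of the GENCODE gene of the same name. That gene begins at 37804842 and ends at 37808876 on the same chromosome. The bases around its GENCODE start were not searched, so the matches above cannot be assigned to a promoter there. RefSeq windows were matched for 5 of the 10 members (Inha, Inhbb, Fshr, Drd4 and Rhox5), and of these Inhbb also held the androgen hexamer, at 34 from its start.

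Per kilobase of exon, the members ranged over more than 2 orders of magnitude in level. Clu led with 187 to 263 CPM per kb over the 8 libraries, followed by Inha with 43.3 to 61 CPM per kb and Rhox5 with 8.91 to 14.8 CPM per kb. The ranges of these 3 genes did not touch each other or those of the genes below them. Inhbb (6.81 to 8.48 CPM per kb) and Gata4 (4.82 to 7.37) overlapped, as did Sox9 (3.44 to 4.39) and Wt1 (2.59 to 3.85), and Wt1 and Drd4 (2.04 to 3.29). Amh (0.982 to 1.82) and Fshr (0.647 to 1.48) were the lowest, and their order was not resolved.

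**Figure D1:**
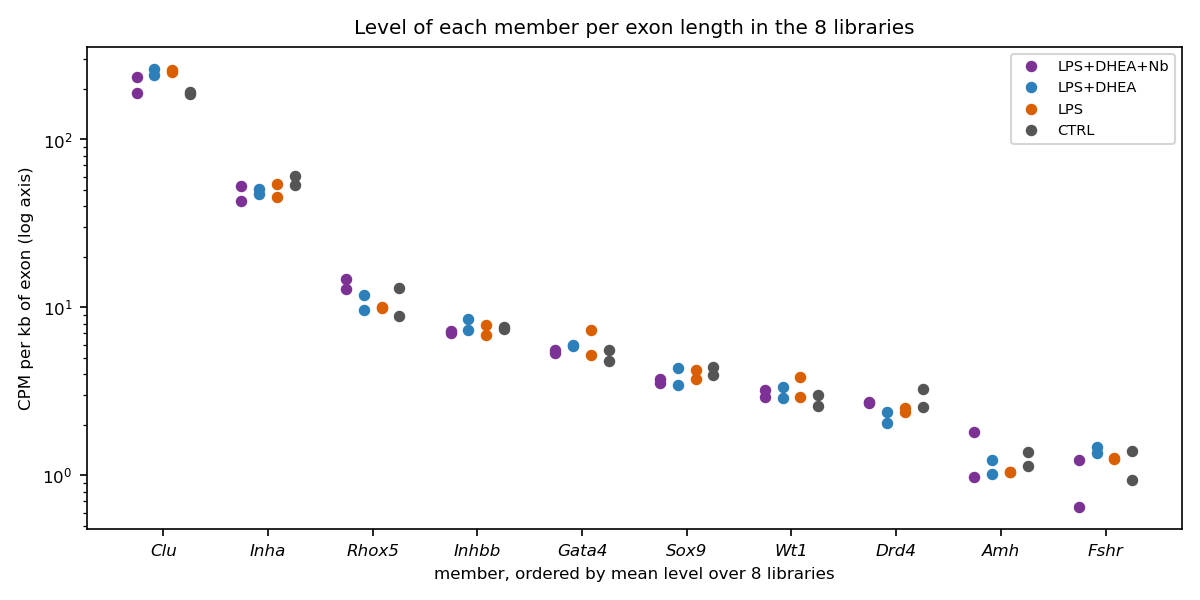
Level of each member in CPM per kb of exon (log axis), with 1 point per library and colours for the 4 groups. Clu lies at or above 187 CPM per kb in every library, and Amh and Fshr lie between 0.647 and 1.82.

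None of the 10 members passed an adjusted p of 0.05 in any of the 4 comparisons or in a test of any difference among the 4 groups (edgeR quasi-likelihood test, Benjamini-Hochberg adjustment over all genes tested). The background rates of calls were 0.295% of genes in LPS versus CTRL, 0.0189% in LPS+DHEA versus LPS, 0.17% in LPS+DHEA+Nb versus LPS, 0.0871% in LPS+DHEA+Nb versus LPS+DHEA and 0.239% among the 4 groups, so 0 of 10 lies close to these rates. At an unadjusted p under 0.05 there was 1 member in LPS versus CTRL (7.11% of all genes), 0 in LPS+DHEA versus LPS (3.51%), 2 in LPS+DHEA+Nb versus LPS (6.56%), 1 in LPS+DHEA+Nb versus LPS+DHEA (4.4%) and 1 among the 4 groups (5.4%). Clu was among them in every comparison with a member, and Rhox5 was the other in LPS+DHEA+Nb versus LPS. With DESeq2, 1 member was called in LPS versus CTRL and 1 among the 4 groups, which was Clu in both, and with limma-voom 0 were called, with the same counts at an unadjusted p under 0.05 by both tools.

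**Figure D2:**
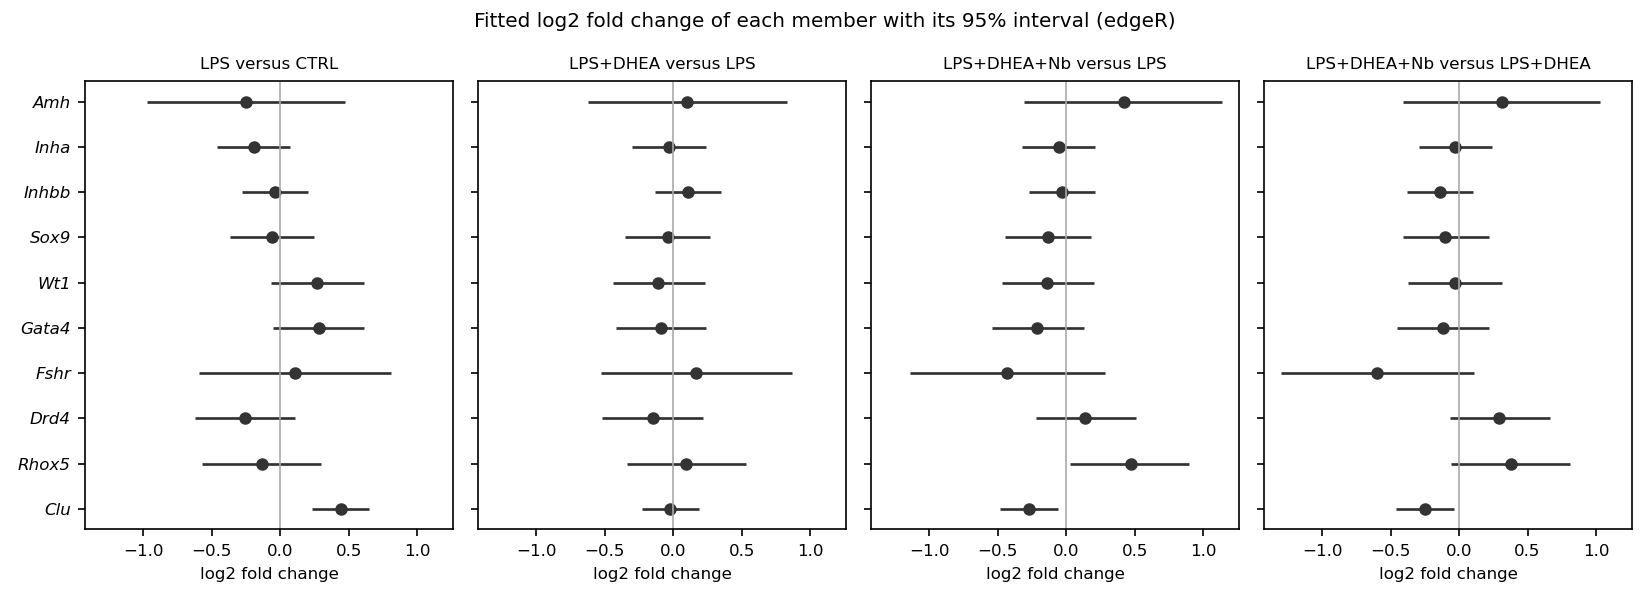
Log2 fold change of each member (point) with its 95% interval (line) in each of the 4 comparisons, from the edgeR model of all 8 libraries. Intervals are narrow for Inha, Inhbb and Clu and wide for Amh and Fshr, and the interval of Clu in LPS versus CTRL runs from 0.23 to 0.65.

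Among the secreted hormones, Amh encodes anti-Müllerian hormone, which is high in immature Sertoli cells and low after puberty. It had 3.04 and 1.64 CPM in LPS+DHEA+Nb, 1.71 and 2.06 CPM in LPS+DHEA, 1.75 and 1.76 CPM in LPS, and 1.89 and 2.28 CPM in CTRL. A single library, LPS+DHEA+Nb replicate 1, stood above all others, with 193 counts (95% Poisson interval 167 to 222) against 104 (85 to 126) in its partner. The log2 fold change was 0.42 in LPS+DHEA+Nb versus LPS (SE 0.33, 95% interval -0.31 to 1.14, adjusted p = 0.907), and -0.09 without that library. In LPS versus CTRL both LPS libraries lay below both CTRL libraries, with a log2 fold change of -0.25 (SE 0.33, interval -0.97 to 0.47, adjusted p = 0.944). Amh lies on GRCm38 chromosome 10 from 80805243 to 80807648, 318 bases after the end of Sf3a2 on the same strand. Sf3a2, a spliceosome gene, had 60.5 to 74.7 CPM, with 60.7 and 65.6 CPM in LPS+DHEA+Nb replicates 1 and 2.

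Inha encodes the alpha subunit shared by the inhibins, which restrain pituitary FSH. It had 63.8 and 77.9 CPM in LPS+DHEA+Nb, 69.6 and 74.7 CPM in LPS+DHEA, 66.7 and 80.5 CPM in LPS, and 78.4 and 90 CPM in CTRL. The mean was 73.6 ± 9.76 CPM in LPS and 84.2 ± 8.16 CPM in CTRL (SD, n = 2 each), the highest of the 4 groups, but the ranges overlapped. The log2 fold change in LPS versus CTRL was -0.19 (SE 0.12, interval -0.46 to 0.07, adjusted p = 0.828), and ran from -0.33 without LPS replicate 2 to -0.07 without LPS replicate 1.

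Inhbb encodes the beta B subunit, which joins the alpha subunit in inhibin B or pairs with itself in activin B. It was the steadiest member, with the highest library at 1.24 times the lowest. Its values were 30.9 and 30.1 CPM in LPS+DHEA+Nb, 36.1 and 31.3 CPM in LPS+DHEA, 29 and 33.4 CPM in LPS, and 31.8 and 32.4 CPM in CTRL. Its 4 log2 fold changes ran from -0.14 to 0.11, and in LPS versus CTRL the 95% interval of -0.28 to 0.2 (adjusted p = 0.984) excludes a change of 1.5-fold in either direction.

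Of the activin and inhibin pathway around these subunits, 17 genes were listed and 15 tested, and none was called in any of the 4 comparisons. The median log2 fold change was 0.18 in LPS versus CTRL, against 0 over all genes tested, and 8 of 15 were positive. The smallest p values there belonged to Fstl3, a follistatin-like antagonist of activin, and Smad2, a signal transducer of activin. Fstl3 had 12.6 and 13.8 CPM in LPS+DHEA+Nb, 13.9 and 13.2 CPM in LPS+DHEA, 16.8 and 16.9 CPM in LPS, and 13 and 12.6 CPM in CTRL. Its log2 fold change in LPS versus CTRL was 0.39 (SE 0.12, adjusted p = 0.392). The pair of LPS libraries stood above all 6 others. Smad2 had 20.9 and 12.4 CPM in LPS+DHEA+Nb, 23.2 and 21.3 CPM in LPS+DHEA, 14.4 and 12.7 CPM in LPS, and 24.3 and 19.3 CPM in CTRL, and its log2 fold change in LPS versus CTRL was -0.69 (SE 0.23, adjusted p = 0.522). The 6 genes of the anti-Müllerian hormone pathway, its receptor Amhr2 among them, had fold changes of -0.08 to 0.19 on the log2 scale in LPS versus CTRL, and none was called in any comparison. The smallest p values were those of the receptor gene Bmpr1a (0.19, SE 0.13, adjusted p = 0.86) and the transducer gene Smad5 (-0.08, SE 0.11, adjusted p = 0.944).

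Among the transcription factors, Sox9 drives the Sertoli fate in the fetal gonad. It had 15.5 and 14.7 CPM in LPS+DHEA+Nb, 14.2 and 18 CPM in LPS+DHEA, 15.5 and 17.6 CPM in LPS, and 16.3 and 18.2 CPM in CTRL. Both LPS+DHEA+Nb libraries lay below both LPS libraries, with 985 counts against 987 at the nearest pair, and below both CTRL libraries. The log2 fold changes of the 4 comparisons ran from -0.13 to -0.04 (adjusted p of 0.952 to 1).

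Wt1 is needed to keep Sertoli identity in the adult mouse. It had 18.1 and 20 CPM in LPS+DHEA+Nb, 18 and 20.9 CPM in LPS+DHEA, 18 and 23.9 CPM in LPS, and 16 and 18.7 CPM in CTRL. Gata4, a zinc finger factor of the somatic gonad, had 21.7 and 21 CPM in LPS+DHEA+Nb, 23.2 and 23 CPM in LPS+DHEA, 20.4 and 28.8 CPM in LPS, and 18.8 and 21.7 CPM in CTRL. LPS replicate 2 was the highest library for both genes. In LPS versus CTRL the log2 fold change was 0.27 for Wt1 (SE 0.15, interval -0.07 to 0.61, adjusted p = 0.795) and 0.28 for Gata4 (SE 0.15, interval -0.05 to 0.61, adjusted p = 0.779). Without LPS replicate 2 these values were 0.06 and 0.02.

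Of 16 further gonadal transcription factors, none was called, with a median log2 fold change of 0.1 in LPS versus CTRL and of -0.16 in LPS+DHEA+Nb versus LPS. Dmrt1, which holds the male fate in the postnatal mouse gonad and is shared with germ cells, had 15.5 and 16.7 CPM in LPS+DHEA+Nb, 19.1 and 18.4 CPM in LPS+DHEA, 25.1 and 23.2 CPM in LPS, and 16.9 and 17.4 CPM in CTRL. The LPS libraries were above all others, with log2 fold changes of 0.5 in LPS versus CTRL (SE 0.11, adjusted p = 0.136) and -0.59 in LPS+DHEA+Nb versus LPS (SE 0.11, adjusted p = 0.0866), neither of which passed. Nr2f2, an orphan receptor of interstitial cells, had the next smallest p after LPS, at a log2 fold change of 0.58 (SE 0.24, adjusted p = 0.654).

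**Figure D3:**
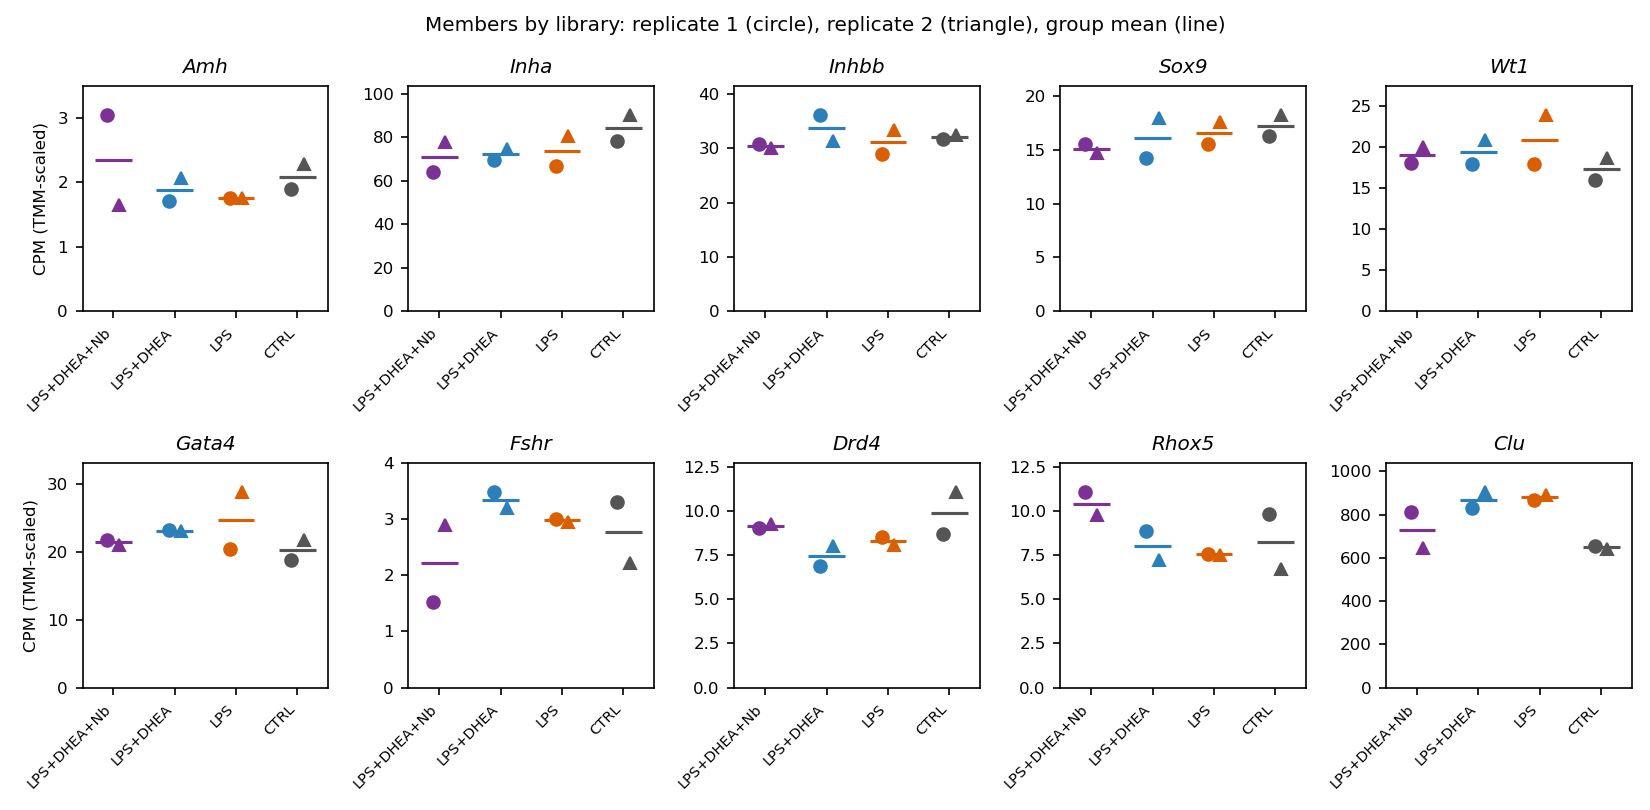
CPM of each member in each library on axes that start at 0 (circle, replicate 1; triangle, replicate 2; line, group mean). The LPS+DHEA and LPS libraries of Clu, at 829 to 905 CPM, lie above the CTRL libraries at 642 and 654 CPM. Among the other members, only Inha and Wt1 overlap between the groups in every comparison.

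The receptor gene Fshr, through which FSH raises cyclic AMP in Sertoli cells, was the most variable member, with the highest library at 2.29 times the lowest. It had 1.53 and 2.9 CPM in LPS+DHEA+Nb, 3.49 and 3.21 CPM in LPS+DHEA, 3.01 and 2.96 CPM in LPS, and 3.31 and 2.22 CPM in CTRL. Its lowest value, 97 counts (95% Poisson interval 79 to 118), was in LPS+DHEA+Nb replicate 1, the library with the highest Amh. Both LPS+DHEA+Nb libraries were below both LPS+DHEA libraries, with a log2 fold change of -0.6 (SE 0.32, interval -1.3 to 0.11, adjusted p = 1), and of -0.2 without replicate 1. The interval of Fshr in LPS versus CTRL, -0.59 to 0.81 around 0.11 (adjusted p = 0.986), does not exclude a change of 1.5-fold in either direction.

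Drd4, a dopamine receptor of the D2 class, had 9.05 and 9.27 CPM in LPS+DHEA+Nb, 6.9 and 8.05 CPM in LPS+DHEA, 8.52 and 8.06 CPM in LPS, and 8.69 and 11.1 CPM in CTRL. Both LPS libraries lay below both CTRL libraries, and both LPS+DHEA+Nb libraries exceeded all 4 of the LPS+DHEA and LPS libraries. The log2 fold change was -0.26 in LPS versus CTRL (SE 0.17, interval -0.62 to 0.11, adjusted p = 0.841) and 0.29 in LPS+DHEA+Nb versus LPS+DHEA (SE 0.17, interval -0.07 to 0.66, adjusted p = 1). The value in LPS versus CTRL was -0.43 without CTRL replicate 1 and -0.07 without CTRL replicate 2. Of 10 other genes of dopamine reception and handling, 7 were tested and none was called, among them the degrading enzyme gene Maoa (log2 fold change in LPS versus CTRL -0.27, SE 0.18, adjusted p = 0.857). Among 13 tested hormone receptor genes, none was called either. Lhcgr, the luteinizing hormone receptor of Leydig cells, had 6.8 and 6.81 CPM in LPS+DHEA+Nb, 5.02 and 4.6 CPM in LPS+DHEA, 3.73 and 3.42 CPM in LPS, and 5.88 and 9.22 CPM in CTRL. Both LPS libraries were the lowest of the 8, and the log2 fold change in LPS versus CTRL was -1.08 (SE 0.22, adjusted p = 0.115). Nr3c1, the glucocorticoid receptor, had a log2 fold change of 0.35 there (SE 0.14, adjusted p = 0.647).

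Rhox5 had 11.1 and 9.76 CPM in LPS+DHEA+Nb, 8.87 and 7.23 CPM in LPS+DHEA, 7.59 and 7.52 CPM in LPS, and 9.83 and 6.72 CPM in CTRL. The LPS+DHEA+Nb libraries exceeded all LPS+DHEA and LPS libraries, but CTRL replicate 1 reached 9.83 CPM, so that LPS+DHEA+Nb and CTRL overlapped. The log2 fold change in LPS+DHEA+Nb versus LPS was 0.47 (SE 0.2, interval 0.03 to 0.9, unadjusted p = 0.0378, adjusted p = 0.735 by edgeR), and 0.38 in LPS+DHEA+Nb versus LPS+DHEA (SE 0.2, adjusted p = 1). In LPS+DHEA versus LPS, the comparison that adds the androgen precursor, the log2 fold change was 0.09 (SE 0.2, interval -0.34 to 0.53, adjusted p = 1). Leydig cells are the source of testicular androgen, and the summed level of 12 Leydig cell markers was 1029 to 1150.3 CPM in LPS+DHEA+Nb, 829 to 851 CPM in LPS+DHEA, 919.5 to 937 CPM in LPS and 1065 to 1253 CPM in CTRL. The marker Insl3 was the largest part of each sum, so the sums are no gauge of the steroid enzyme genes. Insl3 had 559 and 506 CPM in LPS+DHEA+Nb, 503 and 484 CPM in LPS+DHEA, 544 and 575 CPM in LPS, and 552 and 597 CPM in CTRL. Of the 11 Leydig markers tested none was called. At an unadjusted p under 0.05 there were 6, all lower, in LPS versus CTRL (7.11% of all genes in either direction). In LPS+DHEA+Nb versus LPS there were 5 higher and 1 lower (6.56% of all genes in either direction). The steroid enzyme gene Hsd3b1 had 66.6 and 59.7 CPM in LPS+DHEA+Nb, 28.6 and 25.1 CPM in LPS+DHEA, 12.2 and 22.9 CPM in LPS, and 67.3 and 50.8 CPM in CTRL, for a log2 fold change in LPS versus CTRL of -1.75 (SE 0.32, adjusted p = 0.218). The part of these markers in the Rhox5 and Drd4 values was not tested.

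The summed level of 15 other androgen-dependent Sertoli genes was 502 to 521 CPM in LPS+DHEA+Nb, 547 to 549 CPM in LPS+DHEA, 540.4 to 553 CPM in LPS and 507 to 517 CPM in CTRL. None was called in any comparison, and the median log2 fold change was 0.15 in LPS versus CTRL and -0.13 in LPS+DHEA+Nb versus LPS, against 0 over all genes tested in both. Serpina5, a protease inhibitor, had 61.8 and 57.9 CPM in LPS+DHEA+Nb, 74.6 and 72.4 CPM in LPS+DHEA, 66 and 69.4 CPM in LPS, and 60.2 and 55.8 CPM in CTRL. Its log2 fold change in LPS versus CTRL was 0.22 (SE 0.08, adjusted p = 0.568). Cldn3, a tight junction gene, had 63.2 and 57.6 CPM in LPS+DHEA+Nb, 62 and 57.1 CPM in LPS+DHEA, 56.6 and 51.1 CPM in LPS, and 60.9 and 65.6 CPM in CTRL. Its log2 fold change in LPS versus CTRL was -0.23 (SE 0.09, adjusted p = 0.633). Of 12 other genes of the Rhox cluster on the X chromosome, 7 were tested and none was called. Rhox11 had a log2 fold change of 1 in LPS versus CTRL (SE 0.3, adjusted p = 0.389) and Rhox13 of 0.26 (SE 0.26, adjusted p = 0.922), and several genes of the cluster are close copies whose counts are uncertain.

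Clu encodes clusterin, a secreted chaperone that is abundant in Sertoli cells and also inhibits the terminal complement complex. It had 811 and 645 CPM in LPS+DHEA+Nb, 829 and 905 CPM in LPS+DHEA, 869 and 890.1 CPM in LPS, and 654 and 642 CPM in CTRL. The 4 libraries of LPS+DHEA and LPS, and LPS+DHEA+Nb replicate 1, lay well above CTRL, whereas LPS+DHEA+Nb replicate 2 lay between the CTRL libraries. The mean was 879.8 ± 14.6 CPM in LPS and 648 ± 8.86 CPM in CTRL (SD, n = 2 each), with a log2 fold change in LPS versus CTRL of 0.44 (SE 0.09, interval 0.23 to 0.65, unadjusted p = 0.000868). It did not pass the edgeR threshold (adjusted p = 0.141). DESeq2 called it (adjusted p = 0.00327), as did edgeR on the LPS and CTRL libraries alone (adjusted p = 0.0251) and edgeR without either LPS+DHEA+Nb library (adjusted p = 0.0131 in both cases). The adjusted p over 15 alternatives ran from 0.00327 to 0.487, while the log2 fold change stayed between 0.43 and 0.46.

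In LPS+DHEA+Nb versus LPS the log2 fold change of Clu was -0.27 (SE 0.09, unadjusted p = 0.0159, adjusted p = 0.609), and it depended on the library. It was -0.44 without LPS+DHEA+Nb replicate 1 (adjusted p = 0.05, below the threshold before rounding) and -0.12 without replicate 2 (adjusted p = 0.96). In LPS+DHEA versus LPS it was -0.02 (SE 0.09, interval -0.23 to 0.19, adjusted p = 1). Of the 8 peritubular myoid markers, the smooth muscle actin gene Acta2 rose in LPS versus CTRL, for a log2 fold change of 1.1 (SE 0.1, adjusted p = 0.000737), and fell in LPS+DHEA+Nb versus LPS (-0.92, SE 0.1, adjusted p = 0.00443) and versus LPS+DHEA (-0.84, SE 0.1, adjusted p = 0.0172). Acta2 had 51.1 and 53 CPM in LPS+DHEA+Nb, 83.9 and 102 CPM in LPS+DHEA, 103 and 93.6 CPM in LPS, and 45.3 and 46.7 CPM in CTRL. None of the other 7 was called, and the myosin gene Myh11 had a log2 fold change of 0.58 in LPS versus CTRL (SE 0.14, adjusted p = 0.184). The summed level of these markers was 470.4 to 497 CPM in LPS+DHEA+Nb, 551 to 575 CPM in LPS+DHEA, 559 to 588 CPM in LPS and 480.2 to 491 CPM in CTRL. It was higher in both libraries of LPS than in both of CTRL. This was not particular to myoid markers. The sums of androgen-dependent Sertoli genes, gonadal transcription factors and macrophage markers, among others, were also higher in both LPS libraries. Those of Leydig, spermatid and epididymal markers were lower. The summed level of 8 endothelial markers was 50.5 to 53.2 CPM in LPS+DHEA+Nb, 50.3 to 56.3 CPM in LPS+DHEA, 54 to 65.3 CPM in LPS and 43.9 to 49.4 CPM in CTRL. None was called, and in LPS versus CTRL the log2 fold change was 0.68 for Cdh5 (SE 0.14, adjusted p = 0.126) and 1.11 for Pecam1 (SE 0.28, adjusted p = 0.23). The part of these cell types in the Clu values was not tested. The extracellular chaperones and complement regulators listed beside Clu had 11 of 12 genes tested and none called, with a median log2 fold change of -0.07 in LPS versus CTRL. The smallest p values were those of Cd59a, an inhibitor of the membrane attack complex (log2 fold change -0.51, SE 0.21, adjusted p = 0.656), and of the lipid carrier gene Apoe (0.69, SE 0.35, adjusted p = 0.796).

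Of the 30 other Sertoli markers, none was called in any of the 4 comparisons. In LPS versus CTRL 21 had a positive fold change, the median was 0.06, and 4 had an unadjusted p under 0.05 (7.11% of all genes). In LPS+DHEA+Nb versus LPS 7 were positive, the median was -0.1, and 7 had an unadjusted p under 0.05 (6.56% of all genes). The median over the 10 members was -0.05 in LPS versus CTRL and -0.09 in LPS+DHEA+Nb versus LPS, and over all genes tested it was 0 in both. The LPS libraries serve in both comparisons, so their signs are not independent. Beside Dmrt1, the smallest p in LPS versus CTRL was that of Fgf2, a growth factor, with 0.126 and 0.331 CPM in LPS+DHEA+Nb, 2.77 and 0.638 CPM in LPS+DHEA, 3.04 and 3.34 CPM in LPS, and 0.384 and 0.234 CPM in CTRL. Its log2 fold change in LPS versus CTRL was 3.36 (SE 0.7, adjusted p = 0.157).

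**Figure D4:**
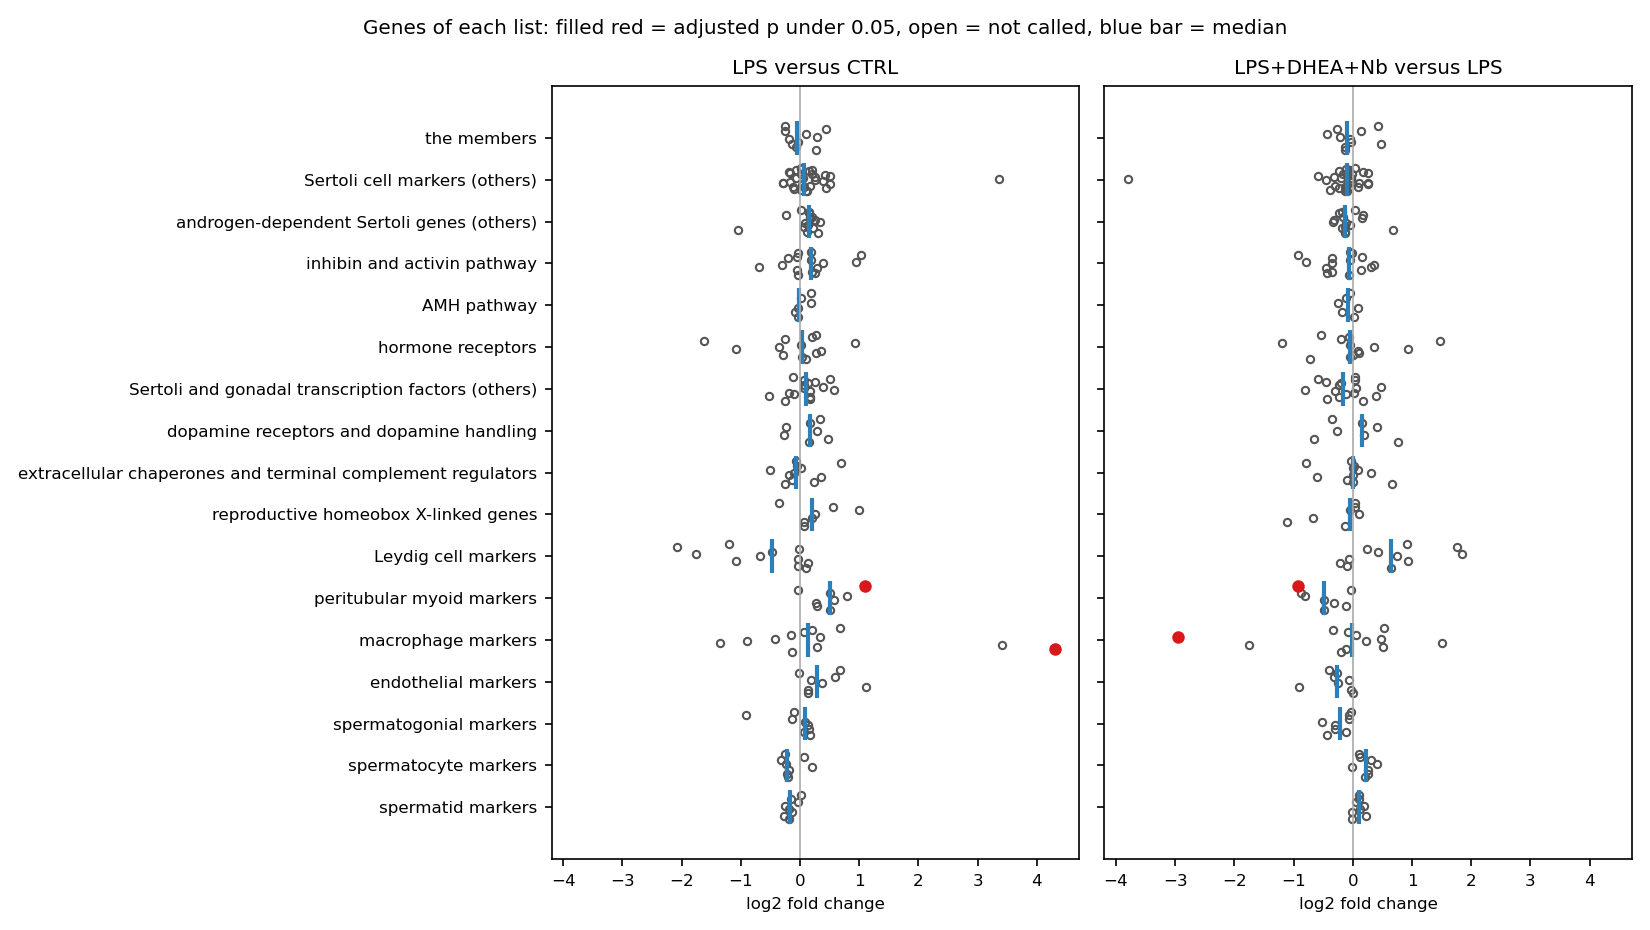
Log2 fold change of every tested gene in the members and in 16 lists, for LPS versus CTRL (left) and LPS+DHEA+Nb versus LPS (right). Open points were not called, filled red points passed an adjusted p of 0.05, and blue bars are medians. The members and the Sertoli lists centre near 0, and the filled points are in the peritubular myoid and macrophage lists.

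With 2 libraries a group, separation without overlap was frequent among all genes. Both libraries of the group named first lay above both of the other for 1 member in LPS versus CTRL (18.9% of all genes), 1 in LPS+DHEA versus LPS (16.1%), 2 in LPS+DHEA+Nb versus LPS (18.1%) and 2 in LPS+DHEA+Nb versus LPS+DHEA (15.7%). They lay below for 2 members (18.1%), 1 (15.7%), 3 (18.6%) and 4 members (17.1%) in the same order of comparisons. The last of these counts held Inhbb, Gata4, Fshr and Clu.

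The 28 other Sertoli markers that averaged 1 CPM or more had their own median log2 CPM in each library. It was 4.51 and 4.61 in LPS+DHEA+Nb, 4.7 and 4.69 in LPS+DHEA, 4.8 and 4.75 in LPS, and 4.61 and 4.65 in CTRL. Scaling to it shifts all members by the same amount in a comparison, and small differences can turn sign by that shift alone. Scaled to this median, library by library, 14 of the 40 member differences turned sign, 5 of them in LPS+DHEA+Nb versus LPS. There Gata4 was at 0.03, Wt1 at 0.09, Sox9 at 0.08, Inha at 0.16 and Inhbb at 0.18 on the log2 scale, against -0.21, -0.14, -0.13, -0.05 and -0.03 in the edgeR model. Rhox5 was 0.68 higher on the log2 scale in LPS+DHEA+Nb than in LPS by this measure, and Drd4 0.36 higher. Clu was 0.3 higher in LPS than in CTRL and -0.07 in LPS+DHEA+Nb relative to LPS. These are differences of log2 means over 2 libraries a group, with no test.

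The genes whose log2 CPM followed a member most closely over the 8 libraries, among 13979 genes, are given as a description, since a profile over 8 libraries finds close matches among so many genes. Clu was followed by the class I gene H2-Q7, which has close copies so that its count is uncertain, and by the diacylglycerol kinase gene Dgke (Pearson's r 0.981 for both). Rhox5 was followed by Tmco5 (0.977) and Slc35a5 (0.971), and Drd4 by the chaperonin subunit gene Cct3 (0.977) and Kctd10 (0.97). Wt1 was followed by the tubulin gene Tubb5 (0.974) and Cd8b1 (0.949), Gata4 by the protease gene Htra3 (0.977) and the actin-severing gene Gsn (0.963), and Sox9 by Kat14 (0.959) and Hap1 (0.952). Inhbb was followed by the zinc transporter gene Slc39a6 (0.949) and by Sox8 (0.944), a relative of Sox9 that is also made in Sertoli cells. Inha was followed by CK137956 (0.977) and Chst3 (0.972), Fshr by Csf3r (0.969) and Crk (0.967), and Amh by Txndc9 (0.936) and Rfx3 (0.931).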

How the data were processed

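Per the submitters' processing notes, HISAT and featureCounts 1.5.0-p3 were used with GRCm38, and the labels name a stranded KAPA kit. The authors deposited 1 whole number per Ensembl gene and library, taken here as an expected count (estimated count) made with HISAT and featureCounts 1.5.0-p3. This reading is an assumption, made because 33.5% of values between 1 and 40 were divisible by 4 instead of 25%. That excess does not show that the numbers are estimates, and its cause was not tested. The numbers needed no rounding, and tests chosen for raw counts were used. Counting intervals cover counting error only, treat each number as a raw count, and may be too narrow if it is not. Strand setting and treatment of multiply mapped reads are unknown here. No annotated gene overlaps a member in GENCODE M21.

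The edgeR 4.0.16 function filterByExpr (at least 10 counts, total at least 15) kept 26414 genes. They were scaled by TMM (factors 0.985 to 1.015) and fitted with 4 group means over 8 libraries (robust quasi-likelihood, 4 residual degrees of freedom). The SE is the log2 fold change divided by the square root of F. The p-values were adjusted by Benjamini-Hochberg over all genes tested, with a threshold of 0.05. The procedure was also run on simulated data, but the outcome is not given here. How often it would find changes as small as those of the members is therefore not stated. Alternatives used DESeq2 1.42.0, limma 3.58.1, other filters and scalings, counts divided by 4, a replicate block and leaving out each library, in R 4.3.3.

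The members and the 17 gene lists were chosen with earlier results of these data known. Named from each list were genes called in a comparison and the 2 with the smallest p in LPS versus CTRL, and for each member the 2 genes most like it. Amhr2 and Sf3a2 were added as context. Some genes that the rule names are not reported here.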

Additional observations from a re-analysis of the deposited data

How the results depend on the processing

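Amh and Fshr had 97 to 223 counts a library, and their 95% intervals were the widest among the members. Of 600 alternative fold changes of members with a test, 569 kept direction and side of the threshold, 26 turned sign and 5 (Clu) were newly called. The number of members called was 0 in each comparison, and 1 (Clu) in LPS versus CTRL with DESeq2 or with only the 2 groups compared, and 1 (Clu) among the 4 groups with DESeq2. Leaving out each library in turn gave 0 to 1 members in LPS versus CTRL, LPS+DHEA+Nb versus LPS and among the 4 groups, each time 1 without an LPS+DHEA+Nb library, and 0 in the other comparisons. The cause was not tested. With the replicate number as a block, 0 members were called in every comparison, and Clu in LPS versus CTRL kept 0.44 (adjusted p = 0.273). Deviations of same-numbered libraries from their group means correlated at -0.06 to 0.07, so no shared deviation was seen. This cannot tell whether same-numbered libraries were handled together. The level relative to other Sertoli markers, which has no test, was chosen after seeing the data and turned the sign of 1 member in LPS versus CTRL, 4 in LPS+DHEA versus LPS, 5 in LPS+DHEA+Nb versus LPS and 4 in LPS+DHEA+Nb versus LPS+DHEA. Genes called numbered 78 in LPS versus CTRL, 5 in LPS+DHEA versus LPS, 45 in LPS+DHEA+Nb versus LPS, 23 in LPS+DHEA+Nb versus LPS+DHEA and 63 among the 4 groups, against 283, 35, 207, 113 and 365 with DESeq2 and 140, 10, 87, 42 and 155 with no filter. With only the 2 groups compared, the numbers were 20 in LPS+DHEA versus LPS, 19 in LPS+DHEA+Nb versus LPS and 40 in LPS+DHEA+Nb versus LPS+DHEA. Without a library they ran from 66 to 118, 10 to 24, 43 to 88, 16 to 64 and 65 to 131. The fold changes whose sign turned on leaving out 1 library gave these log2 ranges. In LPS versus CTRL they were Fshr -0.15 to 0.42, Inhbb -0.15 to 0.06, Rhox5 -0.38 to 0.17, Sox9 -0.15 to 0.03. In LPS+DHEA versus LPS they were Amh -0.04 to 0.23, Clu -0.09 to 0.04, Gata4 -0.32 to 0.17, Inha -0.16 to 0.11, Rhox5 -0.07 to 0.23, Sox9 -0.22 to 0.11, Wt1 -0.3 to 0.1. In LPS+DHEA+Nb versus LPS they were Amh -0.09 to 0.79, Gata4 -0.43 to 0.06, Inha -0.2 to 0.09, Inhbb -0.13 to 0.07, Wt1 -0.33 to 0.08. In LPS+DHEA+Nb versus LPS+DHEA they were Amh -0.19 to 0.69, Inha -0.17 to 0.12, Sox9 -0.25 to 0.08, Wt1 -0.13 to 0.08.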

Other observations

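Macrophage and germ cell markers complete the lists. Of 12 macrophage markers, the scavenger receptor gene Marco rose in LPS versus CTRL (log2 fold change 4.31, SE 0.53, adjusted p = 0.0186, edgeR). It had 2.6 and 6.97 CPM in LPS+DHEA+Nb, 6.48 and 4.89 CPM in LPS+DHEA, 6.19 and 4.22 CPM in LPS, and 0.304 and 0.219 CPM in CTRL. The haemoglobin scavenger receptor gene Cd163 fell in LPS+DHEA+Nb versus LPS (log2 fold change -2.95, SE 0.45, adjusted p = 0.0318). Its values were 0.205 and 0.426 CPM in LPS+DHEA+Nb, 0.704 and 0.883 CPM in LPS+DHEA, 2.91 and 2 CPM in LPS, and 1.5 and 2.41 CPM in CTRL. The chemokine receptor gene Cx3cr1 was not called in LPS versus CTRL (log2 fold change -1.35, SE 0.29, adjusted p = 0.133). Nor was it in LPS+DHEA+Nb versus LPS (1.51, SE 0.29, adjusted p = 0.11). No macrophage marker other than Marco and Cd163 was called, and the list was mixed in sign. In LPS versus CTRL 7 of 12 were positive, with a median of 0.13. In LPS+DHEA+Nb versus LPS 6 were positive, with a median of -0.01.

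None of the 8 spermatogonial, 8 spermatocyte and 8 spermatid markers was called. In LPS versus CTRL the log2 fold changes of smallest p were -0.1 for Dmrtb1 (SE 0.07, adjusted p = 0.866) and 0.16 for Stra8 (SE 0.15, adjusted p = 0.907) among spermatogonial markers. Among spermatocyte markers they were 0.21 for Piwil1 (SE 0.08, adjusted p = 0.629) and -0.25 for Ccna1 (SE 0.11, adjusted p = 0.683). Among spermatid markers they were -0.27 for Tnp1 (SE 0.06, adjusted p = 0.116) and -0.25 for Prm1 (SE 0.07, adjusted p = 0.323). Cst8, which was listed as an epididymal marker but is also made in testis, had -0.22 (SE 0.08, adjusted p = 0.559). This value is no measure of epididymis.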
